A study of Mus musculus with 8 samples.

Results

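The genes described here encode proteins that load the replicative helicase at DNA replication origins and that copy DNA at the fork. They were taken as a named list of 50 mouse genes: 6 origin recognition complex (ORC) subunits, 3 helicase loading genes, 6 subunits of the MCM helicase, the 2 subunits of the DBF4-dependent kinase, 8 helicase partners and origin firing factors, 11 subunits of the 3 replicative DNA polymerases, 3 RPA subunits, PCNA with 5 RFC subunits, 2 genes of Okazaki fragment maturation, 2 CAF-1 subunits and Mcm8. All 50 matched 1 Ensembl identifier each, out of 23318 genes measured. The RNA came from epithelial cells of the mouse small intestine, sorted on CD24, a glycoprotein of the cell surface, after depletion of cells carrying the leukocyte antigen CD45 and of cells bound by the Ulex europaeus lectin. There were 4 libraries of CD24Mid cells, numbered 1, 3, 5 and 7 in the labels, and 4 libraries of CD24Neg cells, numbered 2, 4, 6 and 8. No strain, age, genotype or treatment is given in the labels used here, both fractions were depleted in the same way, and each is a sorted mixture defined by 1 surface antigen and 2 depletions. The series title places the fractions in a study of 5-hydroxymethylcytosine during intestinal differentiation.

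In the small intestine, cell division takes place in the crypts, and the cells that leave them for the villus stop dividing. Before S phase, ORC, Cdc6 and Cdt1 load the MCM helicase on DNA as an inactive double ring. The kinases DDK and CDK then recruit Cdc45 and the GINS complex, which completes the active helicase, and polymerase alpha with primase starts the strands that polymerases epsilon and delta extend with the PCNA clamp. Many genes of this machinery are known targets of E2F transcription factors in mammalian cells.

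Values are the authors' scaled expression estimates per gene, without division by gene length, and are listed for CD24Mid libraries 1, 3, 5 and 7 and for CD24Neg libraries 2, 4, 6 and 8, in that order. Differences are CD24Mid minus CD24Neg of log2(value + 0.5), which understates the change of low genes, and adjusted p-values come from a limma fit to all 12906 genes tested, adjusted over them by the method of Benjamini and Hochberg. The lowest values lie on even steps, and if 1 step is 1 read the libraries held 17.4 to 19.6 M reads in each CD24Mid library, against 12.5 to 20.6 M in each CD24Neg library. Mitochondrially encoded genes took 8.58% ± 0.518 of the summed values in CD24Mid and 32.6% ± 4.63 in CD24Neg (SD, n = 4 each). Of 5 epithelial markers, Epcam, Cdh1 and Cdx2 were not called different between fractions, and Vil1 (-2.67) and Krt8 (-0.55) were lower in CD24Mid, in log2 difference. All 5 crypt progenitor markers were higher in CD24Mid and summed to 48417 to 67328 there, against 1730 to 5847 in CD24Neg. All 5 enterocyte markers and all 4 goblet markers were lower in CD24Mid. The 5 markers of leukocytes and T cells summed to 83.4 to 236 in CD24Mid, against 359 to 5775 in CD24Neg, with the highest sums in libraries 2 and 8, 5775 and 4498. The plasma and B cell markers Jchain, Mzb1, Cd79a and Cd79b were higher in CD24Mid, and the list summed to 2886 to 7470 there, against 182 to 402 in CD24Neg. The 3 enteroendocrine markers were higher in CD24Mid (sums of 3063 to 6996 against 480 to 923 in CD24Neg). Of the Paneth markers Mmp7 was higher in CD24Mid and Lyz1 and Ang4 were not called (sums of 678 to 1513 against 450 to 1938 in CD24Neg). Of the tuft markers Pou2f3 was called higher, Trpm5 was not called and Dclk1 was too low to be tested (sums of 28.7 to 87.8 against 14.0 to 84.6). The means of Trpm5 and Dclk1 were lower in CD24Mid (18.2 and 4.81) than in CD24Neg (32.2 and 16.4). Pou2f3, Mzb1 and Cd79a were under 10 in every CD24Neg library. They passed the filter on low values (10 in 4 libraries) only through CD24Mid, so only a higher call was possible. Of the fibroblast and endothelial markers, which summed to 13.9 to 31.7 in CD24Mid and 13.4 to 48.3 in CD24Neg, Pecam1 was not called and the others were too low to be tested, with Col1a1, Col1a2 and Dcn at 0 in some libraries. The part of any of these cells in the results below was not tested.

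The replication genes were higher in CD24Mid almost without exception. Of the 50 genes, 48 were higher in CD24Mid at an adjusted p under 0.05, 0 were lower, and Orc3 and Orc4 were not called. In the same fit 34.3% of all tested genes were higher in CD24Mid, 34.0% were lower and 68.3% were called in either direction. The median log2 difference of the 50 genes was 2.54, with a range of -0.25 to 4.04, against a median of 0.02 over all tested genes. A difference of over 4-fold in favour of CD24Mid was reached by 31 of the 50 genes (62.0%), and by 9.04% of all tested genes. The lowest CD24Mid library lay above the highest CD24Neg library for the same 48 genes, a pattern found for 32.1% of all tested genes. All 50 genes passed the filter on low values. In sorted populations such as these, a smaller share of cells that express a gene and less RNA per cell cannot be told apart.

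**Figure D1:**
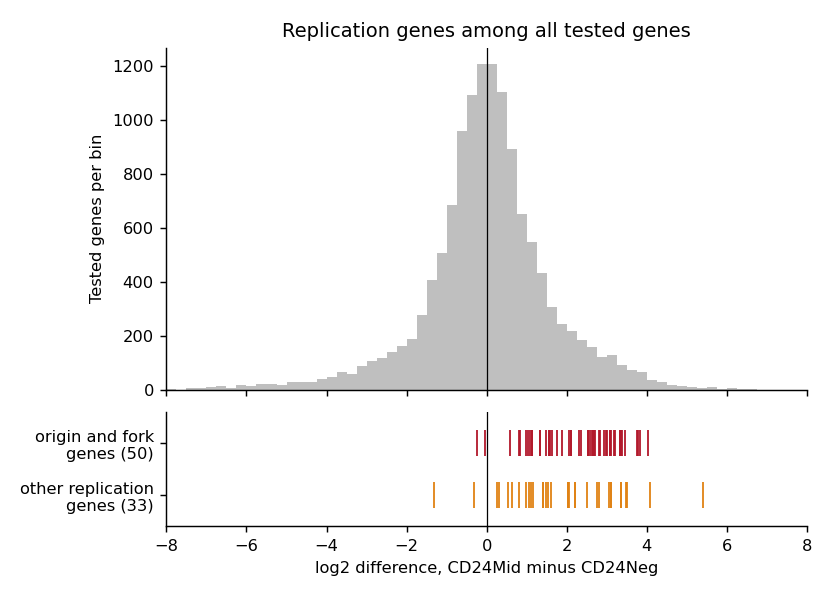
Histogram of the log2 difference, CD24Mid minus CD24Neg, over all 12906 tested genes, with a tick for each of the 50 replication genes and each of 33 other replication genes. The x axis is the log2 difference of value + 0.5 and the y axis the number of genes per bin; 4 tested genes lie beyond the axis, and the 50 genes lie mostly above 1 while the median over all tested genes is 0.02.

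Scaled to the whole library, the 50 genes together took 0.394% ± 0.0339 of the summed values of nuclear genes in CD24Mid and 0.0706% ± 0.0125 in CD24Neg (SD, n = 4 each). The share was 0.358% to 0.439% in the CD24Mid libraries and 0.0600% to 0.0857% in the CD24Neg libraries, so the ranges were far apart. This share sums values that are not divided by length, and it is therefore weighted towards long and abundant transcripts. The mitochondrial share differed between fractions, and another scaling moves every difference: scaling to totals without mitochondrially encoded genes shifted the median over all tested genes to 0.49 and that of the 50 genes to 3.0, and library totals that leave out the 20 most abundant genes gave 0.45 and 2.96. Relative to the median over all tested genes, the 50 genes were 2.52 higher under the chosen scaling and 2.51 higher under each of these. Of all calls, 50.2% were higher in CD24Mid under the chosen scaling, 71.3% without mitochondrially encoded genes and 69.8% without the 20 most abundant genes. Under either of those scalings 49 of the 50 genes were called higher in CD24Mid, Orc3 being added, where 52.1% and 50.5% of all tested genes were, and 0 were called lower, where 20.9% and 21.9% of all tested genes were.

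**Figure D2:**
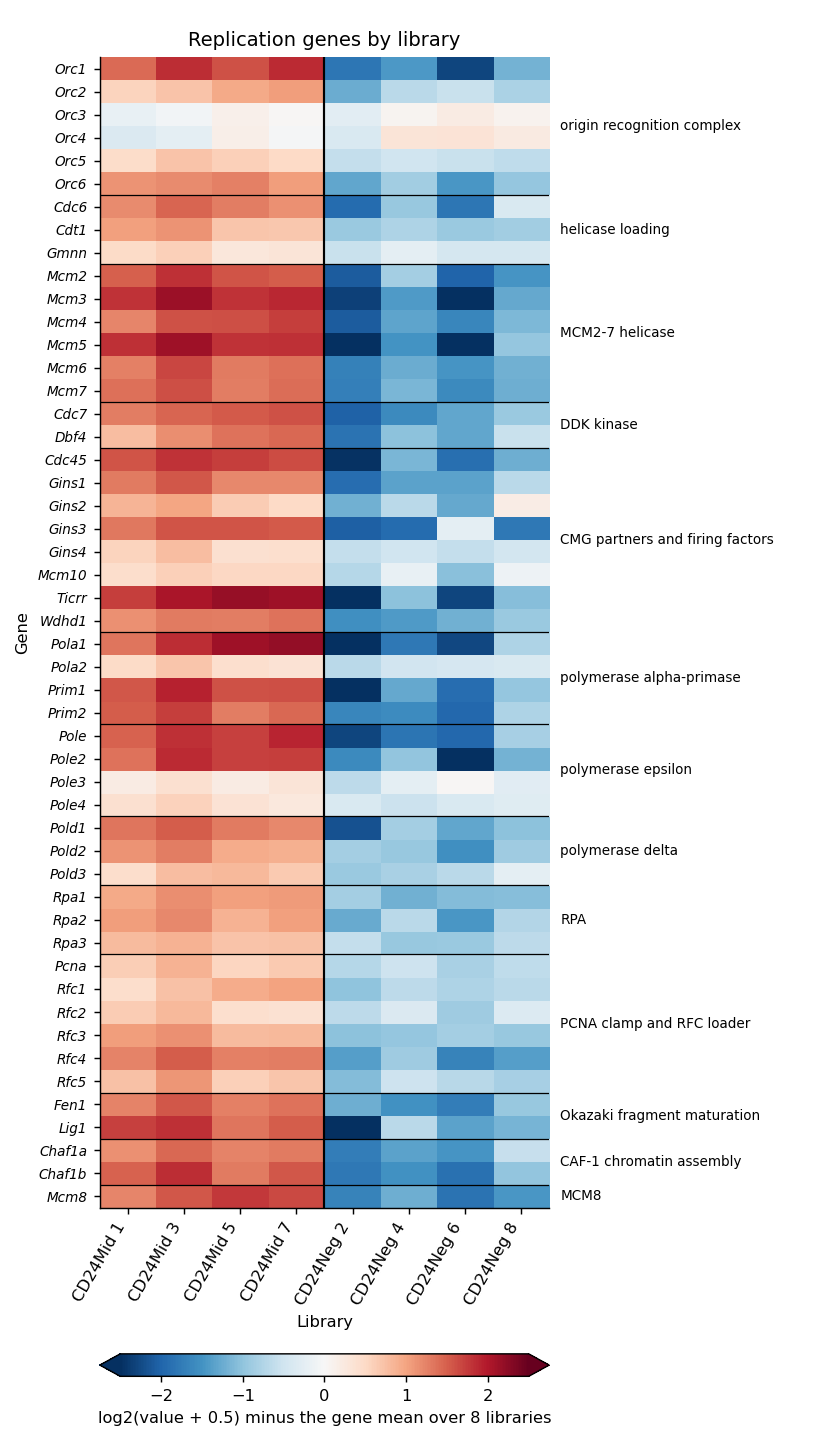
Heat map of the 50 replication genes (rows, grouped by complex) in the 4 CD24Mid libraries (left columns) and the 4 CD24Neg libraries (right columns). Colour is log2(value + 0.5) minus the gene's mean over the 8 libraries, limited to 2.5 in either direction; all genes but Orc3 and Orc4 are higher throughout the CD24Mid columns than throughout the CD24Neg columns.

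Since the genes differed together, their promoters were read for letters that the cell cycle transcription factors of this class are known to bind. RefSeq promoter windows (build GRCm38.p6) were found for 42 of the 50 genes, in 52 windows, and the 250 bases before each start site were searched on both strands. The E2F letters TTTCCCGC, TTTCGCGC, TTTGCCGC or TTTGGCGC were present for 10 of the 42 genes, in 21.2% of their windows against 1.86% of all 32851 windows. The letters CCAAT, bound by NF-Y, were present for 24 of the 42 genes, in 48.1% of their windows against 33.8% of all windows. The letters TTTGAA or TTCGAA of the cell cycle homology region were present in 15.4% of the genes' windows and 17.1% of all windows. The 10 genes with E2F letters had a median log2 difference of 2.82 (range -0.05 to 3.79), and the 32 without had 2.33 (range -0.25 to 4.04), so both ranges cover nearly the whole spread. A match describes the letters only and shows no binding.

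The 150 bases before the start site are printed for 6 genes that show the range of these promoters, with E2F and CCAAT letters (either strand) in capitals. Mcm6 (chr1:128359706-128359855, minus strand) has 3 E2F matches, of which 2 overlap on opposite strands, and Orc1 (chr4:108579304-108579453, plus strand) and Pola1 (chrX:93632156-93632305, minus strand) have 1 each. Mcm3 (chr1:20820313-20820462, minus strand) and Ticrr (chr7:79660046-79660195, plus strand), with differences among the largest of all, have CCAAT letters and no E2F letters in this stretch. Orc3 (chr4:34614943-34615092, minus strand), which was not called different, has 1 E2F match and no CCAAT letters. For all printed genes but Mcm6, the bases just after the start were found near the start of a GENCODE M21 transcript of the gene. They were not found for Mcm6, nor for Mcm5, another gene with E2F letters, so those start sites were not matched.
Mcm6: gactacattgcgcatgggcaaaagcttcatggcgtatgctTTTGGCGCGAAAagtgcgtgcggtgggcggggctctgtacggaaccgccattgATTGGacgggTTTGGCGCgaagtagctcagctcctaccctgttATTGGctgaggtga
Orc1: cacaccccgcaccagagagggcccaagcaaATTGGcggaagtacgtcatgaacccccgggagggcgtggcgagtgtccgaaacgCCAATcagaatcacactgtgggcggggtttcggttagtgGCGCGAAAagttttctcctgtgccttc
Pola1: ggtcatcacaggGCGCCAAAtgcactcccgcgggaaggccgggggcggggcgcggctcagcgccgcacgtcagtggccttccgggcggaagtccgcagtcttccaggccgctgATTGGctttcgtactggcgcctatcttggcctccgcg
Mcm3: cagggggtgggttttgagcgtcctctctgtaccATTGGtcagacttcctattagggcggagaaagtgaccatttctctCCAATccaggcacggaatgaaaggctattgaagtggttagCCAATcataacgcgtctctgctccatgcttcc
Ticrr: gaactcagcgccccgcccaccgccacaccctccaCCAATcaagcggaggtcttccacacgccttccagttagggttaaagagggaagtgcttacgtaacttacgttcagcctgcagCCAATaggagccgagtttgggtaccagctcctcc
Orc3: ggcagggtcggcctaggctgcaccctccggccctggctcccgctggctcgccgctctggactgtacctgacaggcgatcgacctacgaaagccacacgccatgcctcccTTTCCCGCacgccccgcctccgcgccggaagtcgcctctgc

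ORC, which marks the origins, was the only complex with genes that were not called. Orc1, Orc2, Orc5 and Orc6 were higher in CD24Mid, while Orc3 and Orc4, subunits of the core of the complex, were not called, and the median log2 difference of the 6 genes was 1.38. Orc1 (ENSMUSG00000028587), the subunit whose level is known to follow the cell cycle in mammalian cells, had values of 102, 137, 114 and 138 in CD24Mid and 10.4, 13.5, 7.29 and 16.4 in CD24Neg. The groups did not overlap, and Orc1 was 10.3-fold higher in CD24Mid (log2 difference 3.36, SE 0.28, adjusted p = 3.5e-06). Its CD24Neg values are low, and that of library 2 corresponds to 5.83 estimated reads. Orc3 (ENSMUSG00000040044) had values of 344, 373, 427 and 400.3 in CD24Mid and 328, 410.1, 454 and 415 in CD24Neg. These ranges overlap, and the log2 difference was -0.05 with a 95% interval of -0.33 to 0.23 (adjusted p = 0.724). Orc4 (ENSMUSG00000026761) had values of 309.8, 339, 440.3 and 392 in CD24Mid and 306, 503, 506 and 466 in CD24Neg. They overlap too, with a difference of -0.25 and an interval of -0.65 to 0.15 (adjusted p = 0.242); without CD24Neg library 2, its lowest, Orc4 was called lower in CD24Mid (log2 difference -0.44, adjusted p = 0.0185). Scaling to totals without mitochondrially encoded genes turned both signs, to 0.41 for Orc3 (adjusted p = 0.0131) and 0.21 for Orc4 (adjusted p = 0.30), both below the shift of all tested genes under that scaling, 0.49. Orc2 (1.63), Orc5 (1.13) and Orc6 (2.30) lay between, in log2 difference. Exons of Orc1 and Orc2 overlap those of Gm12743 and Nif3l1, on the opposite strand, over 11.9% and 24.0% of their bases.

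Per kilobase of exon, which allows levels of different genes to be compared, the make-up of the ORC transcripts differed between the fractions. Orc3 held 20.3 to 21.9% of the summed level of the 6 genes in CD24Mid libraries and 38.4 to 42.7% in CD24Neg libraries. Orc6, the smallest subunit, held 27.2 to 31.9% in CD24Mid and 8.2 to 12.3% in CD24Neg. Orc1 was the lowest of the 6 in both fractions, at 33.8 to 45.8 per kilobase in CD24Mid and 2.42 to 5.43 in CD24Neg.

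Loading of the helicase needs Cdc6, an ATPase that joins ORC, and Cdt1, which brings the MCM ring and is held in check by geminin (Gmnn). All 3 genes were higher in CD24Mid, but by different amounts. Cdc6 had values of 356, 427, 381 and 343 in CD24Mid and 41.0, 80.4, 44.3 and 119 in CD24Neg (log2 difference 2.53, SE 0.31, adjusted p = 4.6e-05). Gmnn had values of 558, 601, 487 and 495 in CD24Mid and 271, 335, 294 and 294 in CD24Neg (log2 difference 0.84, SE 0.11, adjusted p = 8.27e-05). Its groups lie apart, yet the 1.79-fold difference was small beside that of Cdc6. Cdt1 had values of 1039.9, 1107, 823 and 812 in CD24Mid and 267, 298, 268 and 277 in CD24Neg (log2 difference 1.76, SE 0.12, adjusted p = 1.22e-06). Tested against a 1.5-fold change, Gmnn was not called (adjusted p = 0.0593).

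The MCM helicase, the ring that unwinds DNA, was higher in CD24Mid throughout. All 6 subunits were higher in CD24Mid, with log2 differences of 2.81 to 3.82 and a median of 3.14. Mcm3 had values of 1422, 1789, 1420.3 and 1492 in CD24Mid and 80.3, 152, 64.9 and 166 in CD24Neg. This was the largest difference of the 6, 14.2-fold (log2 difference 3.82, SE 0.28, adjusted p = 1.58e-06), closely followed by Mcm5, and the order of these genes turned under quantile normalization (3.89 for Mcm3 and 3.91 for Mcm5) and without CD24Neg library 8 (4.03 and 4.09). Mcm6 had values of 2751, 3663, 2829 and 2966 in CD24Mid and 355, 481, 409 and 497 in CD24Neg. It had the smallest difference, 7.02-fold (log2 difference 2.81, SE 0.14, adjusted p = 2.66e-07), and even so its lowest CD24Mid library was far above its highest CD24Neg library. The other 4 subunits were higher by log2 differences of 3.21 (Mcm2), 3.08 (Mcm4), 3.79 (Mcm5) and 2.83 (Mcm7). Exons of Mcm7 overlap those of Ap4m1, on the opposite strand, over 10.8% of their bases. Per kilobase, the order of levels in CD24Mid ran from Mcm4 (282 to 397) through Mcm2 (437 to 549), Mcm3 (469 to 590.2), Mcm5 (591 to 740.2) and Mcm6 (629 to 837) to Mcm7 (732 to 916). Mcm4 lay apart from Mcm2, and Mcm3 from Mcm5 by a narrow gap, while the other neighbours overlap. In CD24Neg, Mcm6 (81.1 to 114) and Mcm7 (91.5 to 137) were again the highest per kilobase, and the other 4 lay between 21.4 and 86.8.

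**Figure D3:**
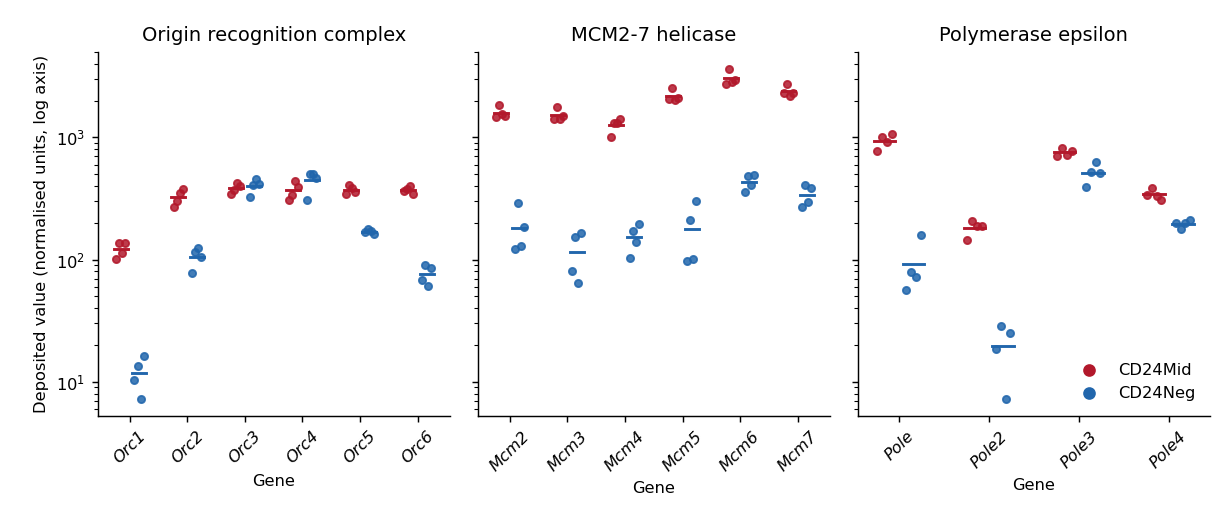
Values in each library for the subunits of ORC, the MCM helicase and polymerase epsilon on a log axis, CD24Mid to the left of CD24Neg for each gene, with bars for the means of 4 libraries. The 6 MCM subunits are separated by similar distances, whereas Orc3 and Orc4 overlap between fractions and Pole3 and Pole4 are separated far less than Pole and Pole2.

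The DBF4-dependent kinase phosphorylates the loaded MCM ring, a step that origin firing needs. Both of its genes were higher in CD24Mid. The catalytic subunit Cdc7 had values of 229, 259.9, 276 and 284 in CD24Mid and 22.9, 31.1, 38.0 and 49.3 in CD24Neg (log2 difference 2.92, SE 0.23, adjusted p = 2.5e-06). Its activator Dbf4 had values of 441, 581, 665 and 704 in CD24Mid and 72.0, 128, 105 and 176 in CD24Neg (log2 difference 2.36, SE 0.26, adjusted p = 2.1e-05). Both genes lie apart between the fractions in every library.

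The partners that turn the loaded ring into a working helicase were all higher in CD24Mid, with log2 differences of 1.03 to 4.04 and a median of 2.58 over 8 genes. Ticrr, also called treslin, which carries the CDK signal for firing, had values of 467, 576, 638 and 609 in CD24Mid and 10.3, 68.4, 28.0 and 67.0 in CD24Neg. At 16.4-fold it had the largest difference of the 50 genes (log2 difference 4.04, SE 0.51, adjusted p = 6.06e-05), but without CD24Neg library 2 its log2 difference was 3.47, below the 3.67 of Mcm3, the 3.54 of Mcm5 and the 3.48 of Pola1. The CD24Neg libraries differed widely among themselves in this gene, and the value of library 2 corresponds to 5.80 estimated reads. Mcm10, which acts as the helicase is activated and is not a ring subunit, had values of 868, 968, 919 and 914 in CD24Mid and 390.4, 566, 309.6 and 589 in CD24Neg. It was 2.04-fold higher (log2 difference 1.03, SE 0.19, adjusted p = 0.000784), the smallest difference in the group, and it was not called when tested against a 1.5-fold change (adjusted p = 0.0555). Cdc45 was higher by 3.37 and Wdhd1, which couples the helicase to polymerase alpha, by 2.54. The 4 GINS subunits were uneven, from 1.08 for Gins4 and 1.49 for Gins2 to 2.62 for Gins1 and 3.0 for Gins3. For Gins3 the value of CD24Neg library 2 corresponds to 5.74 estimated reads. In the GENCODE M21 annotation 70.7% of the exon bases of Gins2 are shared with exons of Gse1 on the opposite strand, and Gse1 was lower in CD24Mid (-1.07). Whether the authors' counting used strand is not given in the sources used here, so reads of that pair may not be told apart.

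**Figure D4:**
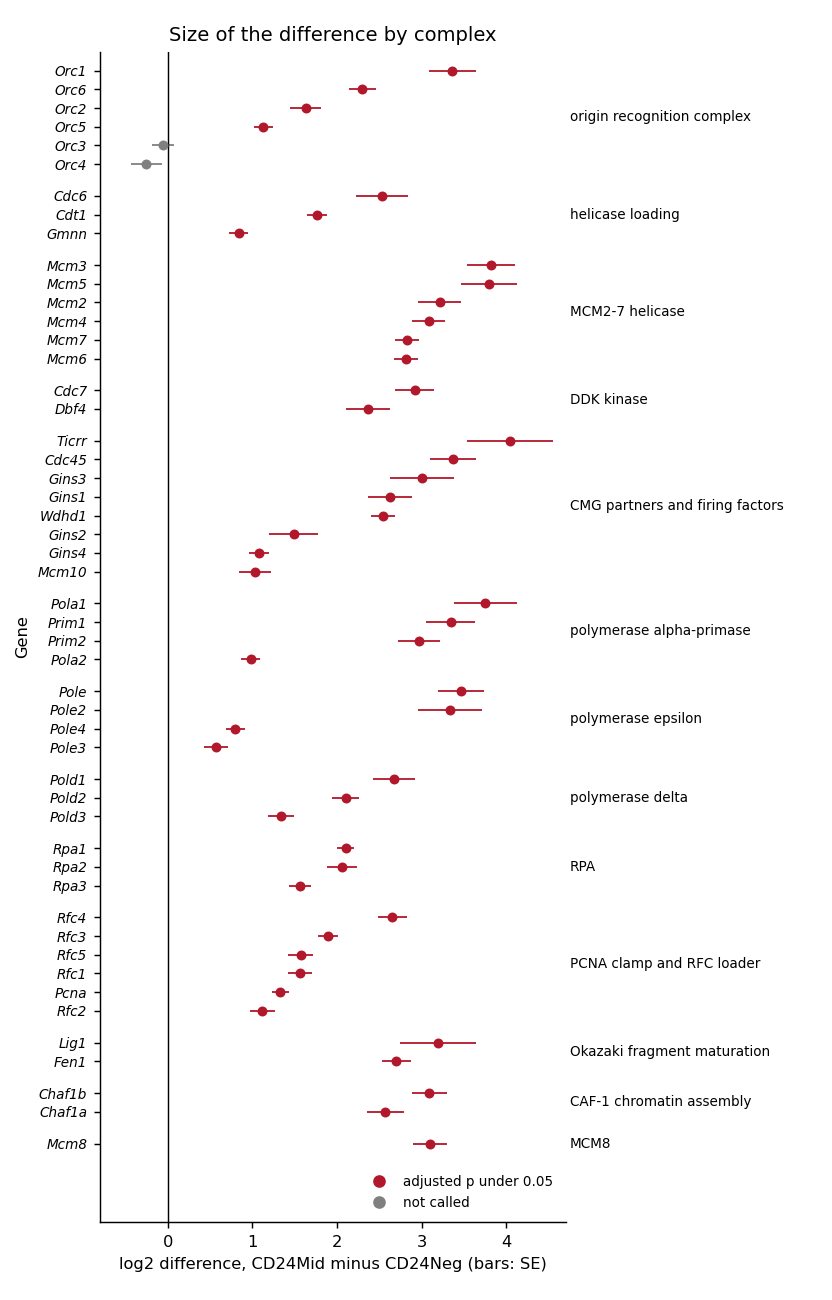
Log2 difference, CD24Mid minus CD24Neg, of each of the 50 genes by complex, with bars of 1 SE (limma, 4 libraries a group); red marks genes called at an adjusted p under 0.05 and grey those not called. Ticrr is the highest at 4.04, and Orc3 and Orc4 are the only genes below 0.

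Polymerase alpha with primase, which makes the RNA-DNA primers, had 4 genes higher in CD24Mid with a median log2 difference of 3.16. Its catalytic subunit Pola1 had values of 476, 670.4, 819 and 865 in CD24Mid and 29.4, 53.7, 38.3 and 109 in CD24Neg. It was 13.5-fold higher (log2 difference 3.75, SE 0.37, adjusted p = 9.72e-06). Its regulatory subunit Pola2 had values of 674, 783, 649 and 617 in CD24Mid and 301, 347, 358 and 372 in CD24Neg. That is 1.97-fold (log2 difference 0.98, SE 0.11, adjusted p = 2.84e-05), far less than its partner, although the groups lie apart. Of the primase subunits, Prim1 was higher by 3.34 and Prim2 by 2.97.

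Polymerase epsilon, which copies the leading strand, split by subunit. The catalytic subunit Pole had values of 779, 1000.2, 922 and 1061 in CD24Mid and 56.6, 79.1, 71.4 and 159 in CD24Neg (log2 difference 3.46, SE 0.27, adjusted p = 2.61e-06). Pole2, the subunit that joins the polymerase to the helicase, had values of 146, 208, 188 and 189.9 in CD24Mid and 18.7, 28.4, 7.17 and 24.9 in CD24Neg (log2 difference 3.33, SE 0.38, adjusted p = 3.09e-05). Both were 10-fold or more higher in CD24Mid, and the 4 CD24Neg values of Pole2 are low, with 6.68 estimated reads in library 6. Exons of Pole2 overlap those of the protein-coding gene Gm49384, on the same strand, over 14.4% of their bases. Pole3, a histone-fold subunit also found in chromatin remodelling complexes, had values of 709, 818, 715 and 773 in CD24Mid and 393, 521, 629 and 510.3 in CD24Neg (log2 difference 0.57, SE 0.14, adjusted p = 0.00407). Pole4, its histone-fold partner, had values of 341, 384, 331 and 310.3 in CD24Mid and 199, 178, 198 and 209.7 in CD24Neg (log2 difference 0.80, SE 0.11, adjusted p = 0.000127). The pair was called higher in CD24Mid by 1.49-fold and 1.74-fold only, and neither was called when tested against a 1.5-fold change (adjusted p = 0.90 for Pole3 and 0.108 for Pole4). Per kilobase, Pole3 lay at 393 to 453 in CD24Mid, against 218 to 348 in CD24Neg, and Pole at 105 to 143 in CD24Mid and 7.63 to 21.4 in CD24Neg.

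Polymerase delta, which extends the lagging strand, had all 3 listed genes higher in CD24Mid, with a median log2 difference of 2.10. The catalytic subunit Pold1 had values of 1358, 1529.8, 1318 and 1241 in CD24Mid and 118, 298, 219.6 and 265 in CD24Neg (log2 difference 2.67, SE 0.25, adjusted p = 7.26e-06). The accessory subunit Pold3 had values of 724, 906, 939 and 844 in CD24Mid and 280.4, 303, 333 and 449 in CD24Neg (log2 difference 1.34, SE 0.15, adjusted p = 3.07e-05). Both lie apart between the fractions, and Pold2 was between them at 2.10. CD24Neg library 2 was the lowest for Pold1, at a level well under that of the other 3.

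RPA, which coats single-stranded DNA at the fork, was higher in CD24Mid in all 3 subunits. Rpa1, the largest subunit, had values of 1064, 1233, 1125 and 1148 in CD24Mid and 306, 239, 261 and 262 in CD24Neg (log2 difference 2.10, SE 0.10, adjusted p = 2.68e-07). Rpa3, the smallest, had values of 334, 349, 316 and 320.5 in CD24Mid and 127, 99.2, 100.05 and 122 in CD24Neg (log2 difference 1.56, SE 0.13, adjusted p = 3.28e-06). The replicates of each fraction lie close together in both genes, and Rpa2 was higher by 2.06.

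PCNA, the sliding clamp, and RFC, the pentamer that loads it, showed smaller differences, 1.12 to 2.65 with a median of 1.56 on the log2 scale. Pcna was the most abundant of the 50 genes per kilobase, at 1921 to 2405 in CD24Mid, against 755 to 918 in CD24Neg. It was higher in CD24Mid by 1.33 (SE 0.10, adjusted p = 2.39e-06). Pcna has annotated pseudogenes that could share its reads. Rfc4 had values of 460.4, 557, 465 and 474 in CD24Mid and 74.9, 105, 61.0 and 74.4 in CD24Neg (log2 difference 2.65, SE 0.17, adjusted p = 7.6e-07). Rfc2 had values of 862, 975, 749 and 725 in CD24Mid and 353, 434, 299 and 440.4 in CD24Neg (log2 difference 1.12, SE 0.15, adjusted p = 8.7e-05). These are the largest and the smallest difference of the loader. Rfc1, the large subunit, had values of 738, 903, 1038 and 1088 in CD24Mid and 268, 345, 317 and 338 in CD24Neg (log2 difference 1.56, SE 0.14, adjusted p = 5.81e-06). Rfc3 and Rfc5 were higher by 1.89 and 1.57. Exons of Rfc2, Rfc4 and Rfc5 overlap those of Lat2, Eif4a2 and Wsb2, on the opposite strand, over 19.1%, 13.4% and 15.4% of their bases. Lat2 (-1.6) and Wsb2 (-1.27) were lower in CD24Mid, and Eif4a2 (-0.16) was not called. Mean CD24Neg values were 4294 for Eif4a2, 1949 for Wsb2 and 63.4 for Lat2, against 78.7 for Rfc4, 292 for Rfc5 and 382 for Rfc2. Reads of these pairs may not be told apart.

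Fen1, the flap nuclease, and Lig1, the ligase, finish the Okazaki fragments. Both were higher in CD24Mid. Lig1 had values of 2257, 2457, 1754 and 1964 in CD24Mid and 73.7, 437, 274 and 310.3 in CD24Neg. It was 9.12-fold higher (log2 difference 3.19, SE 0.45, adjusted p = 0.00013), with CD24Neg library 2 far below the other CD24Neg libraries, and 5.94-fold higher without CD24Neg libraries 2 and 8. Fen1 had values of 963, 1185, 967 and 1032 in CD24Mid and 173, 142, 122 and 211 in CD24Neg (log2 difference 2.70, SE 0.17, adjusted p = 6.41e-07). Its exons overlap those of the predicted gene Gm10143 over 78.8% of their bases, and that gene was listed at no more than 14.1 in any library.

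CAF-1 places new histones H3 and H4 on the copied DNA, and both of its listed subunits were higher in CD24Mid. Chaf1a, the large subunit, had values of 625, 764, 668 and 693 in CD24Mid and 84.6, 111, 101 and 188 in CD24Neg (log2 difference 2.57, SE 0.22, adjusted p = 4.04e-06). Chaf1b had values of 452, 586, 401 and 475 in CD24Mid and 46.6, 56.5, 43.9 and 81.2 in CD24Neg (log2 difference 3.09, SE 0.21, adjusted p = 1.05e-06). Both lie apart between fractions. Exons of Chaf1a overlap those of Ubxn6, which was lower in CD24Mid (-0.66), over 33.6% of their bases. Mcm8, an MCM-family protein of recombination repair, had values of 162, 205, 235 and 219 in CD24Mid and 21.4, 29.4, 18.9 and 24.9 in CD24Neg. At 8.55-fold (log2 difference 3.10, SE 0.20, adjusted p = 9.07e-07) its log2 difference lay within the range of the ring subunits, 2.81 to 3.82.

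Whether related genes differed by different amounts was tested with the ratio of a pair of genes within each library, which does not depend on the scaling between libraries. The pairs are subunits of the same complex, except Gmnn with Cdt1, an inhibitor and its target, and Mcm8 with Mcm2, of the same family. Like the other lists, they were set with earlier results of these data known, so the p-values describe these pairs and are not independent support. Of 12 pairs, 8 had ratios that differed between fractions, each with an exact two-sided permutation p of 0.0286, the smallest that 4 against 4 libraries allow, and an adjusted p over the pairs of 0.0429. That adjusted p depends on how many of the listed pairs reach the smallest p. The share of gene pairs at large that would pass was not computed, so the count is not particular to replication genes. Of single tested genes, 68.3% were called in either direction in the main fit. The ratios of these 8 pairs did not overlap between fractions. Pole3 to Pole2 was 4.86, 3.92, 3.80 and 4.06 in CD24Mid and 20.5, 18.03, 82.0 and 20.1 in CD24Neg, a log2 difference of -2.75. Pole4 to Pole was 0.438, 0.384, 0.359 and 0.293 in CD24Mid and 3.49, 2.24, 2.76 and 1.32 in CD24Neg, a log2 difference of -2.66. The histone-fold subunits of polymerase epsilon were thus lower relative to the other subunits in CD24Mid. Orc1 to Orc4 was 0.330, 0.406, 0.259 and 0.353 in CD24Mid and 0.0355, 0.0278, 0.0154 and 0.0362 in CD24Neg, a log2 difference of 3.61.

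Gmnn to Cdt1, the inhibitor over its target, was 0.537, 0.543, 0.592 and 0.609 in CD24Mid and 1.02, 1.12, 1.10 and 1.06 in CD24Neg, a log2 difference of -0.91. It was among the tightest of the ratios: all CD24Mid libraries lay below 0.61 and all CD24Neg libraries above 1.01. Rfc1 to Rfc4 was 1.603, 1.62, 2.23 and 2.30 in CD24Mid and 3.56, 3.28, 5.16 and 4.52 in CD24Neg (-1.09). Dbf4 to Cdc7 (-0.56) and Rpa3 to Rpa1 (-0.54) were lower in CD24Mid, and Chaf1b to Chaf1a (0.52) was higher, on the log2 scale. For 4 pairs the adjusted p missed the threshold: Gins3 to Gins2 (log2 difference 1.51, adjusted p = 0.171 by permutation), Pold2 to Pold1 (-0.57, 0.0762), Prim2 to Prim1 (-0.37, 0.218) and Mcm8 to Mcm2 (-0.12, 0.629). In the CD24Neg libraries Gins3 to Gins2 ran over 0.0569, 0.0425, 0.207 and 0.0257, a wide spread.

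**Figure D5:**
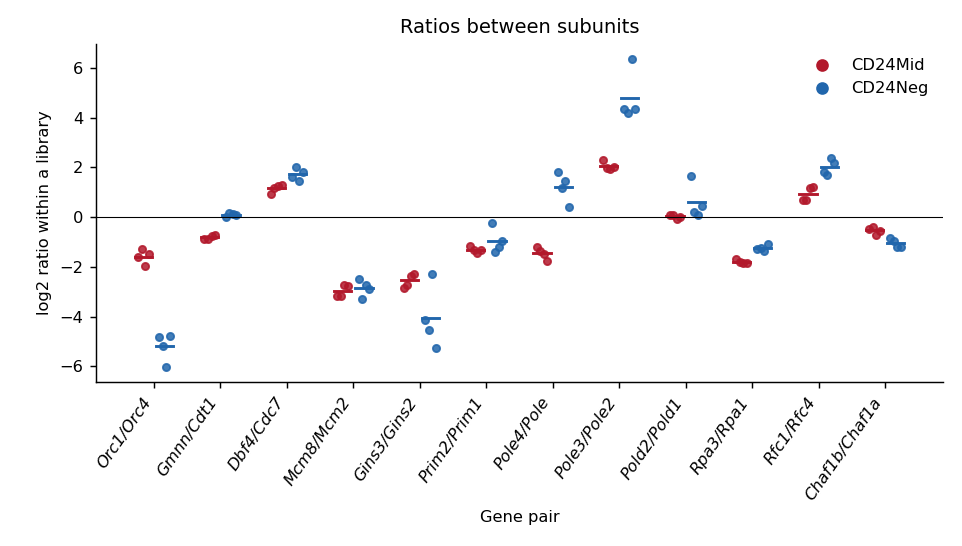
Log2 ratio of each of 12 pairs of genes in every library, CD24Mid to the left of CD24Neg for each pair; short lines are means of 4 libraries. The fractions do not overlap for the 8 pairs with an adjusted p of 0.0429 (exact permutation test), and they do for Mcm8 to Mcm2, Gins3 to Gins2, Prim2 to Prim1 and Pold2 to Pold1.

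The rest of the pathway was read from a list of 33 other replication genes. Of these, 29 were higher in CD24Mid, 2 were lower and 2 were not called, with a median log2 difference of 2.02. Of all tested genes, 34.3% were higher in CD24Mid and 34.0% lower, with a median of 0.02. Timeless, of the fork protection complex, had values of 524, 493, 466 and 543 in CD24Mid and 4.57, 8.97, 6.83 and 56.1 in CD24Neg. It had the largest difference (log2 difference 5.41, SE 0.62, adjusted p = 3.02e-05), 42.6-fold, and 71.4-fold without CD24Neg library 8, which was far above the other CD24Neg libraries. The Timeless values of CD24Neg libraries 2, 4 and 6 lay under 10, the value of the filter. There 1 read is worth 1.07 to 1.78, so the folds rest on few estimated reads in these libraries. Dtl, a receptor of the ubiquitin ligase that degrades Cdt1, had values of 581, 747, 742 and 755 in CD24Mid and 18.2, 64.3, 34.2 and 68.2 in CD24Neg (log2 difference 4.09, SE 0.37, adjusted p = 5.71e-06). Top2a, the topoisomerase of dividing cells, and Clspn, the checkpoint mediator claspin, were higher by 3.50 and 3.48.

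The small subunit of polymerase delta went the other way. Pold4 had values of 103, 111, 85.1 and 95.7 in CD24Mid and 243, 282, 268 and 199.5 in CD24Neg, so that it was lower in CD24Mid (log2 difference -1.32, SE 0.15, adjusted p = 3.27e-05) while Pold1, Pold2 and Pold3 were higher. Tonsl, which binds new histones behind the fork together with Mms22l, had values of 725, 656, 631 and 634 in CD24Mid and 922, 928, 645 and 818 in CD24Neg. Its call as lower (log2 difference -0.31, SE 0.13, adjusted p = 0.0495) rests on overlapping ranges, was lost without CD24Mid library 3, 5 or 7 or CD24Neg library 2, 4 or 8 (adjusted p 0.0792 to 0.124), and the sign turned under scaling to totals without mitochondrially encoded genes (0.15). Mms22l was higher by 2.02. Mcm9 had values of 230.1, 239.8, 252 and 263 in CD24Mid and 153, 214, 244 and 231 in CD24Neg, a difference of 0.25 with an interval of -0.10 to 0.60 (adjusted p = 0.186). Top1 had values of 1015, 1266, 2214 and 2035 in CD24Mid and 887, 1153, 1726 and 1388 in CD24Neg, a difference of 0.31 with an interval of -0.30 to 0.92 (adjusted p = 0.336). Both ranges overlap, and both genes were called higher in CD24Mid under the scaling to totals without mitochondrially encoded genes (0.71 and 0.78). Top1 was also called higher under quantile normalization (0.68, adjusted p = 0.0461), where the median over all tested genes was 0.06, and with libraries of adjacent numbers (1 with 2 and so on) as a block (0.31, adjusted p = 0.0164).

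The libraries of a fraction differed in these genes together. CD24Mid library 3 was the highest of its fraction for 34 of the 50 genes, with a median deviation of 0.17 from the fraction's mean on the log2 scale, and CD24Mid library 1 was the lowest for 27. In CD24Neg, library 8 was highest for 24 genes and library 4 for 17, with median deviations of 0.26 and 0.14, while library 2 was lowest for 30 (-0.27) and library 6 for 16 (-0.15). The median deviation over all tested genes was between -0.03 and 0.04 in the 8 libraries. The summed crypt progenitor markers were 48417, 62796, 61081 and 67328 in CD24Mid and 1730, 5775, 2565 and 5847 in CD24Neg. They were in the same order as the deviations of the replication genes in CD24Neg and not in CD24Mid, where library 7 was the highest. The summed enteroendocrine markers, 480, 923, 628 and 772 in the CD24Neg libraries, were also lowest in libraries 2 and 6. So were the summed Paneth, tuft, and plasma and B cell markers, while the sums of the remaining lists were not. The part of any marker in the spread was not tested. Across the 50 genes the log2 difference was weakly related to exon length (Spearman's rho 0.21, over genes, which are not independent replicates), and over 11887 tested genes with a length rho was 0.06. Without any 1 library, 48 of the 50 genes were still called higher in CD24Mid.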

How the data were processed

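Per the labels' protocols, TruSeq RNA libraries were prepared from total RNA of the sorted cells. The deposited signal values are the authors' gene-level expression estimates, already scaled between libraries and not divided by length. Bowtie 0.12.8 and build NCBIM37 are named in the submitters' processing notes; the estimator's version, annotation release and use of strand were not given in the sources used here. Whole reads could not be recovered, so no count model was used and the branch of the planned design for values without counts was taken. Each library was centred by its median ratio to the geometric mean, genes reaching 10 in 4 or more libraries were tested, and limma 3.58.1 (R 4.3.3; trend, robust, no covariates, 6 residual degrees of freedom) was fitted to log2(value + 0.5) with Benjamini-Hochberg adjustment and a threshold of 0.05. Where 2 fractions are compared by ratios within libraries, exact two-sided permutation tests were run in scipy 1.17.1. The fit was tested on simulated data. The series design calls the libraries biological replicates.

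Symbols and exon lengths are from GENCODE M21, which matched 21223 of 23318 identifiers; promoters are from RefSeq, GRCm38.p6. The genes and lists were chosen with earlier results of these data known. Values per library are given, by rule, for the largest and smallest difference in each complex, for genes not called or lower in CD24Mid, and for pairs that passed; of the other replication genes, the 4 largest called differences and those not called or lower are named. Alternatives were other scalings, filters, pseudocounts and tests, leaving out libraries, and a block on adjacent library numbers. Of the plasma and B cell markers, 1 is not reported here by name.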

Additional observations from a re-analysis of the deposited data

Results flagged for a closer look

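In 5 of 100 groups of 4 values (50 genes in 2 fractions), the gap of a library to its nearest neighbour exceeded, as a share of the group's range, Dixon's 95% critical value, which chance gives in about 1 of 20 groups. CD24Mid library 3 was far above the other CD24Mid libraries for Mcm5 (value 2559, gap 0.907 of the range), Prim1 (857, gap 0.86) and Rfc4 (557, gap 0.863). CD24Neg library 6 was far above the other CD24Neg libraries for Gins3 (36.6, gap 0.925) and far below them for Pold2 (231, gap 0.85). All 5 genes were called higher in CD24Mid without the library concerned.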

How the results depend on the processing

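Each of the 50 genes was recomputed under 21 alternatives: 1038 values kept their direction and side of the threshold, 6 turned, 4 lost and 2 gained a call. The 12 ratio differences kept their call under pseudocounts of 0.1, 1 and 5. Leaving out a library allows no permutation p under 0.0571, and Mcm8 to Mcm2 turned to 0.01 without CD24Neg library 2. Orc3 (-0.05) turned to 0.37 with library totals that leave out the 20 most abundant genes and 0.41 with totals without mitochondrially encoded genes, and ranged from -0.16 to 0.01 when each library was left out. Orc4 (-0.25) turned to 0.18 and 0.21 under those scalings, and Tonsl (-0.31) to 0.12 and 0.15. The number of the 50 genes called lower in CD24Mid was 0 to 1 when each library was left out and 1 without CD24Neg libraries 2 and 8, an alternative chosen after seeing the data; the gene is Orc4 (-0.48). The number of the 33 other genes called lower was 1 (Pold4) under quantile normalization, both scalings to totals, no filter, limma without trend and robust variance, the test against a 1.5-fold change and without CD24Neg libraries 2 and 8, and 1 to 2 when each library was left out. Over all genes, 6740 were higher and 2711 lower without mitochondrially encoded genes, and 2831 were lower without the 20 most abundant. Tested against a 1.5-fold change, 2430 of the 12906 tested genes were higher and 2360 lower. That test called 44 of the 50 genes and lost Gmnn, Mcm10, Pole3 and Pole4, while Orc3 and Orc4 were again not called. The causes were not tested. The labels give no pairing, since the fractions share no replicate number. The main fit and the permutation tests of the ratio pairs therefore treat the libraries as unpaired. The permutation p-values hold only if that is so. Libraries with adjacent numbers (1 and 2, 3 and 4, 5 and 6, 7 and 8) did deviate together over all tested genes (r of 0.28 to 0.33, against -0.26 to 0.03 for other pairs of libraries), a hint from the data and not from the design. With these as a replicate block, an alternative also chosen after seeing the data, 48 of the 50 genes were higher and 0 lower. Orc3 and Orc4 were not called (adjusted p = 0.606 and 0.0753). Of the 33 other genes, 30 were higher (Top1 added) and 2 lower, and of all 12906 tested genes 4771 were higher and 4732 lower. The permutation tests of the ratio pairs were not rerun with this block. Exact permutation within the blocks has too few arrangements to reach a p under 0.05, so no pair could be called by it. Lower nuclear depth in CD24Neg (estimated reads of 15.9 to 18.01 M in CD24Mid, against 8.07 to 14.7 M in CD24Neg) limits the low CD24Neg values, where 1 read is worth 1.07 to 1.78.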
